A study of Mus musculus with 2 samples.

Results

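The S100 genes encode small proteins with paired EF-hand motifs, through which most of them, though not all, bind calcium. In those that do, calcium opens a surface on the S100 dimer that docks onto partner proteins. Partners of the family include annexins, cytoskeletal proteins and calcium pumps. Some S100 proteins also leave the cell and act on receptors such as RAGE, the product of Ager. In the eye, S100b is best known from glia and pigment cells, S100a6 and S100a4 from connective tissue, and S100a10 as the partner of annexin A2 at the cell membrane.

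The genes described here are S100a1, S100a4, S100a6, S100a10, S100a11, S100a13, S100a16 and S100b. They were matched by symbol to the gene names of the count tables and are 8 of the 17 S100 genes among the 32285 genes listed. The cells came from the retinal pigment epithelium (RPE), the pigmented layer under the photoreceptors, with the choroid and sclera still attached. The mice were male C57BL/6J mice aged 3 months. The control library held cells of mice injected with PBS under the retina, and the Dox library those of mice given 1 µl of doxorubicin, a drug that damages DNA, at 100 ng/µl. Both were collected 7 days after the injection, and each library pooled 10 eyes of 5 mice. With 1 library per condition there was no replicate, so what doxorubicin did cannot be told apart from how the libraries differ, and the conditions were not tested against each other.

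The files held unique molecular identifiers (UMIs), tags that each mark 1 RNA molecule. Values are given per cell or per 1000000 UMIs of a group of cells (CPM). A UMI comes from the 5′ end of a molecule, so values were not divided by gene length. Where a pair of values is given for the libraries, control comes first. Every interval is a 95% interval of counting error only. After filtering, 20180 control and 15426 Dox cells remained, with medians of 4495 and 4995 UMIs. Among the kept cells, 427 barcodes occurred in both libraries.

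RPE cells were taken as cells with at least 10 UMIs of Rpe65, the isomerase of the visual cycle. There were 1526 in control (7.56% of kept cells, 7.20 to 7.94) and 1630 in Dox (10.6%, 10.1 to 11.1), with medians of 16013.5 and 18115.5 UMIs. They held 1759 UMIs of RPE markers per cell in control and 1962 in Dox, with 9 of the 10 markers at 10 CPM or more. The other cell types held 16.7 to 28.1 such UMIs per cell in control and 27.5 to 42.3 in Dox, so RNA of RPE cells was present in droplets of every type. The other cells fell into 3 fibroblast-like clusters, led by Myoc, Cxcl10 (with other immune genes) and Dpt, and into melanocyte-like, macrophage or dendritic-like, NK or T-like, smooth muscle-like and endothelial-like clusters and an unnamed one led by Snhg7os. Of the RPE cells, 1303 in control and 1381 in Dox fell into an RPE-like cluster and 223 and 249 into other clusters. The melanocyte-like cluster held 85 and 63 of them and the Snhg7os-led cluster 99 and 120. Hbb-bs, a hemoglobin gene, led the shallow melanocyte-like cluster (medians of 1145 and 760 UMIs), and immunoglobulin genes led the NK or T-like cluster. Only 1 of the 10 leading genes of the melanocyte-like cluster was a listed melanocyte marker (Pmel). Its cells held 108 and 35.9 melanocyte marker UMIs per cell beside 28.1 and 42.3 RPE marker UMIs, so more of the latter in Dox. Cells of the endothelial-like cluster with more Schwann than endothelial marker UMIs, 49 in control and 31 in Dox, were kept apart as Schwann-rich, and 11 and 17 of that cluster's cells lay within 2 UMIs of this limit. S100 genes were left out of the features used for clustering.

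Each member had its own distribution over the cell types, here by UMIs per cell. In CPM some orders differed, since RPE cells are deep. S100a1 had its highest level in RPE cells, S100b in melanocyte-like cells, ahead of Schwann-rich cells, and S100a4 in macrophage or dendritic-like cells, ahead of NK or T-like cells. Within these last types S100a6 was still the more abundant gene, at 7.25 and 7.04 UMIs per macrophage or dendritic-like cell against 1.58 and 1.89 for S100a4. S100a6, S100a10 and S100a11 were highest in the Dpt-led fibroblast-like cells. In both libraries S100a13 and S100a16 were also highest there, with RPE cells behind them and, for S100a13, also behind endothelial-like cells. The plot of UMIs per cell by cell type shows these orders.

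**Figure D1:**
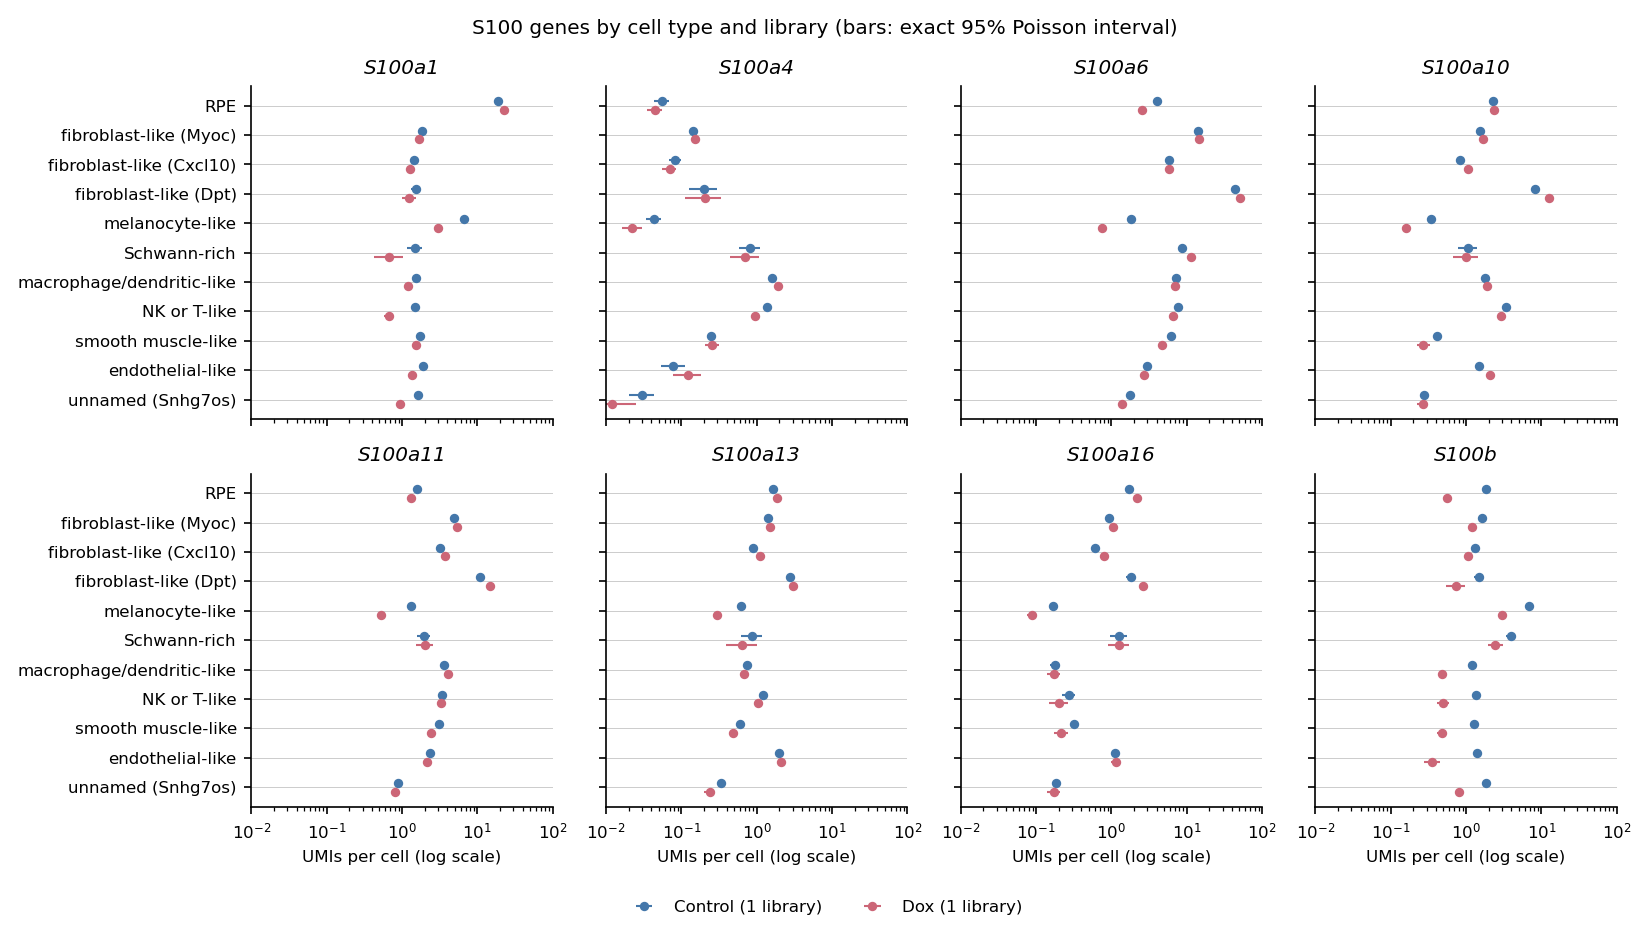
UMIs per cell (log axis) of the 8 S100 genes in 11 groups of cells, in control (blue) and Dox (red). Points are 1 library each and bars are exact Poisson intervals; RPE cells lead for S100a1 (18.8 and 22.5 UMIs per cell), melanocyte-like cells for S100b, and Dpt-led fibroblast-like cells for S100a6 (44.0 and 51.7).

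S100a1, which binds the calcium pump SERCA and ryanodine receptors in muscle, was at 18.8 UMIs per RPE cell in control (18.54 to 18.97) and 22.5 in Dox (22.3 to 22.8). By UMIs it held rank 82 among the 18692 genes seen in control RPE cells and rank 73 among 18835 in Dox. RPE cells were 7.56% of the control cells and carried 40.1% of the control S100a1 UMIs. In Dox they were 10.6% of the cells and carried 60.2%. Of the UMIs of all genes in kept cells, RPE cells held 26313869 of 115611226 in control and 31201113 of 99273166 in Dox. Melanocyte-like cells came next, at 6.64 UMIs per cell in control and 3.02 in Dox. In CPM these shallow cells lay above RPE cells, at 2432 and 2196 CPM, with S100a1 at ranks 37 and 39 by UMIs. All other types, apart from cells of the RPE-like cluster under the Rpe65 limit, lay between 1.43 and 1.87 UMIs per cell in control. For Dox they lay further apart, between 0.68 and 1.66. These levels were not read as expression. In RPE cells, S100a1 was 1088 and 1178 CPM (log2 ratio of Dox to control 0.12, 0.09 to 0.14). The difference was well under 1.5-fold, although its interval left out 0.

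S100a1 and S100a13 lie head to head on chromosome 3 (GENCODE vM21, GRCm38). S100a1 covers chr3:90511034-90514392 on the minus strand and S100a13 covers chr3:90514435-90524581 on the plus strand. RefSeq places their start sites at 90514330 and 90514435, 105 bases apart. The window that both promoters share, chr3:90514281-90514484 in GRCm38.p6, is shown on the plus strand, with the 104 bases between the start sites in capitals, because these neighbors differed so much in RPE cells.
S100a1 and S100a13: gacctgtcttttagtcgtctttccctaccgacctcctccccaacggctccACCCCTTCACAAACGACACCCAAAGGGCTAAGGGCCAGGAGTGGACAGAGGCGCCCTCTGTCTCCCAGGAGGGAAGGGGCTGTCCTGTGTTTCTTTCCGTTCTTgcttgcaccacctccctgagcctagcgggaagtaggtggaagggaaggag

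S100a13, which takes part in the release of the growth factor FGF1, was at 1.63 UMIs per RPE cell in control and 1.83 in Dox, far under S100a1 from the same window. In Dpt-led fibroblast-like cells it was the higher of the pair, at 2.78 and 3.07 against 1.51 and 1.25 for S100a1. Over the 24 groups of cell type and library, the log2(CPM + 1) values of the pair had a Pearson r of -0.30. The 24 groups share 2 libraries, so this r is a description. In RPE cells, S100a13 was 94.7 and 95.9 CPM (log2 ratio 0.02, -0.06 to 0.10).

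S100a10 and S100a16 were well above the lowest cell types in RPE cells, and S100a11 was not far from them. S100a10, the partner of annexin A2, was at 2.28 UMIs per RPE cell in control and 2.33 in Dox, against 0.34 and 0.16 in the lowest named type. Dpt-led fibroblast-like cells (8.11 and 12.6) and NK or T-like cells (3.36 and 2.91) lay above RPE cells. In CPM the order differed, since RPE cells are deep: S100a10 was 132 and 122 CPM in RPE cells against 291 and 287 CPM in the Myoc-led fibroblast-like cells. S100a16, a broadly expressed member, was at 1.72 UMIs per RPE cell in control and 2.17 in Dox. The lowest named type had 0.17 and 0.09. In control its interval in RPE cells (1.65 to 1.78) overlapped that of the Dpt-led fibroblast-like cells (1.57 to 2.07), and in Dox it did not. S100a11, which binds annexin A1, was at 1.58 and 1.32 UMIs per RPE cell, below most types and far below the Dpt-led fibroblast-like cells at 10.8 and 14.7.

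S100a6, also called calcyclin, was high in connective tissue cells. The Dpt-led fibroblast-like cells had 44.0 UMIs per cell in control (42.8 to 45.2) and 51.7 in Dox (50.1 to 53.5), where it held rank 7 among all genes in both libraries. The Myoc-led fibroblast-like cells followed at 14.2 and 14.5. Fibroblast-like cells together were 63.6% of the control cells and carried 85.5% of the control S100a6 UMIs. In Dox they were 63.3% of the cells and carried 89.9%. Schwann-rich, NK or T-like and macrophage or dendritic-like cells had 8.76, 7.74 and 7.25 UMIs per cell in control. RPE cells had 4.07 in control and 2.56 in Dox, and melanocyte-like cells 1.82 and 0.74.

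S100a4, a myosin-binding member known from motile cells, was almost absent from RPE cells. It had 84 UMIs in the 1526 control cells and 72 in the 1630 Dox cells, and 1 Dox cell held 29 of the 72. Macrophage or dendritic-like cells had 1.58 UMIs per cell in control (1.51 to 1.67) and 1.89 in Dox (1.78 to 2.01). NK or T-like cells had 1.37 and 0.96, and Schwann-rich cells 0.82 and 0.71. S100a4 overlaps Gm42674 on the same strand, so its reads may be shared with that gene.

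S100a6 and S100a11 had the most alike patterns of any pair of members, with an r of 0.92 over the 24 groups. Of the 8 members, 7 had a RefSeq promoter window of 250 bases before to 50 after the start. The windows of S100a6 and S100a11 held the letters CACGTG, which reads the same on both strands, and those of the other members did not. Of all 32851 windows, 7.15% held it. The S100a6 and S100a11 windows are shown on the plus strand in GRCm38.p6, at chr3:90612644-90612943 and chr3:93520246-93520545, with CACGTG in capitals. TATAAA on either strand occurred only in the S100a4 window among the members, and in 13.6% of all windows. A match is a description of the letters.
S100a6: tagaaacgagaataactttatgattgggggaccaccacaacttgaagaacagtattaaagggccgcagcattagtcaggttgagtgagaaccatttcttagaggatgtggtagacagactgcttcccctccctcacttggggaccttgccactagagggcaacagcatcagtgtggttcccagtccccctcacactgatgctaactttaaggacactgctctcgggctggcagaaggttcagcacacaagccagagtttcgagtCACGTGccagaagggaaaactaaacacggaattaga
S100a11: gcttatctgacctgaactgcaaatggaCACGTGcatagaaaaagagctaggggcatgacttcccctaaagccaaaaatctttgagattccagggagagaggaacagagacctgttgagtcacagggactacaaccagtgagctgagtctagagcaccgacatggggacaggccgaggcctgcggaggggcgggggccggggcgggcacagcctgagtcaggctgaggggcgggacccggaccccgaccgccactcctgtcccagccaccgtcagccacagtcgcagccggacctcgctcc

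Between the libraries, S100b and S100a6 were at least 1.5-fold lower in Dox RPE cells and no member was 1.5-fold higher. All 8 members had the 50 UMIs over both libraries asked of a gene. At 1.5-fold, 0 of 8 were higher in Dox, where 1.64% of the 12774 genes with enough UMIs were, and 2 of 8 were lower, where 4.89% were. The members' median log2 ratio was -0.27 and that of all genes -0.01. S100b was 107 and 29.4 CPM (log2 ratio -1.87, -1.97 to -1.76). S100a6 was 236 and 134 CPM (-0.82, -0.88 to -0.76). S100a11 was 91.8 and 68.9 CPM (-0.41), S100a10 132 and 122 CPM (-0.12) and S100a16 99.6 and 114 CPM (0.19, 0.12 to 0.26). S100a4 was 3.19 and 2.31 CPM (-0.47, -0.94 to 0.00), and -1.09 (-1.66 to -0.53) without the top cell of each library, which would make 3 of 8 lower. S100b, S100a1 and S100a16 are among the genes the study listed from these libraries, so their direction here is not independent evidence. The study also listed S100a6, as a marker of an RPE cluster in control and in Dox.

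**Figure D2:**
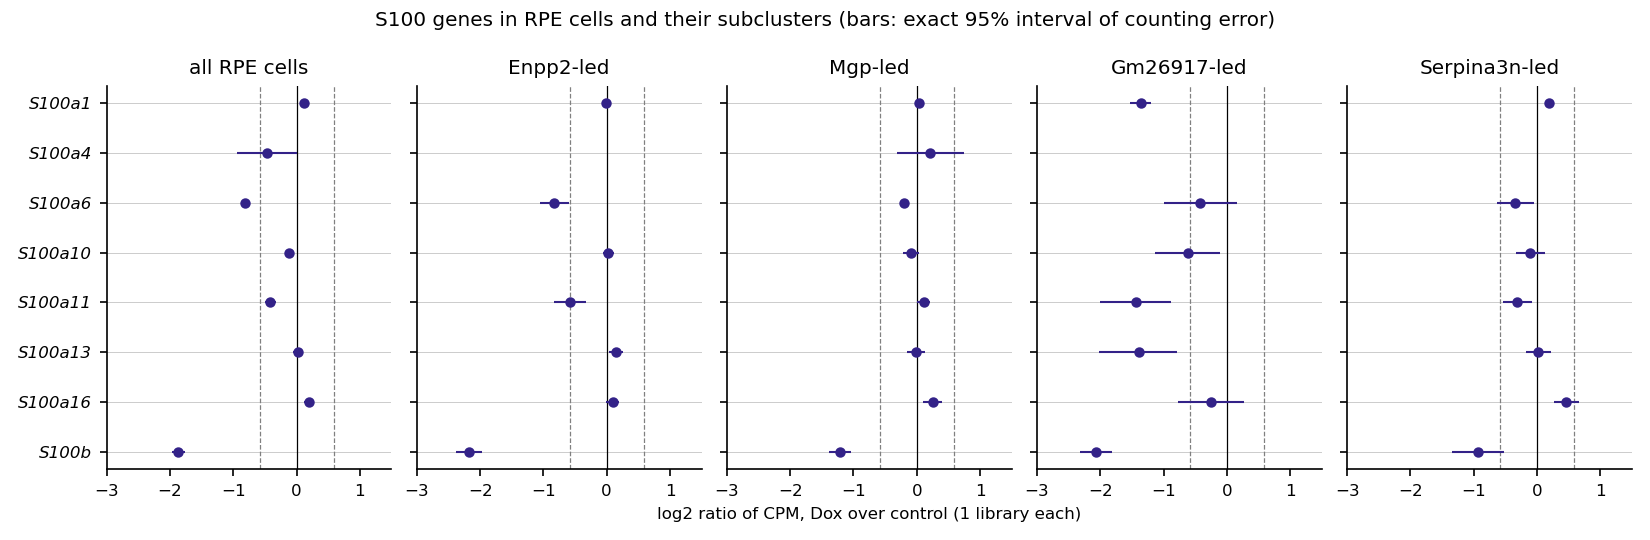
Log2 ratio of CPM in Dox over control for the 8 S100 genes in all RPE cells and in 4 RPE subclusters. Bars are exact intervals of counting error, dashed lines mark 1.5-fold, and members under 50 UMIs over both libraries are left out; S100b lies left of the dashed line in every panel (-0.94 to -2.17 in the subclusters).

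RPE cells were clustered again, without S100 genes, into 4 subclusters called by their leading gene. The Enpp2-led cells, 882 in control and 954 in Dox, had the lowest doublet scores and 2.36 and 1.62 fibroblast marker UMIs per cell, beside 41.0 and 35.0 melanocyte marker UMIs. The Mgp-led cells, 407 and 290, were led by fibroblast genes (Mgp, Apod, Lum and Dcn) beside 1328 and 1306 RPE marker UMIs per cell. Their median doublet scores were 0.42 and 0.40, against 0.089 and 0.079 in the Enpp2-led cells. The Gm26917-led cells, 149 and 194, were shallow (medians of 4249 and 4887 UMIs) and also led by the nuclear RNA Malat1 and the melanocyte gene Pmel. The Serpina3n-led cells, 88 in control and 192 in Dox, were the deepest (29727 and 30832.5 UMIs) and also led by Timp1, C4b and A2m. In them Cdkn1a, the cell cycle inhibitor p21, was 60.1 and 334 CPM. These cells were clustered on their own genes, so differences between subclusters are described and were not tested.

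**Figure D3:**
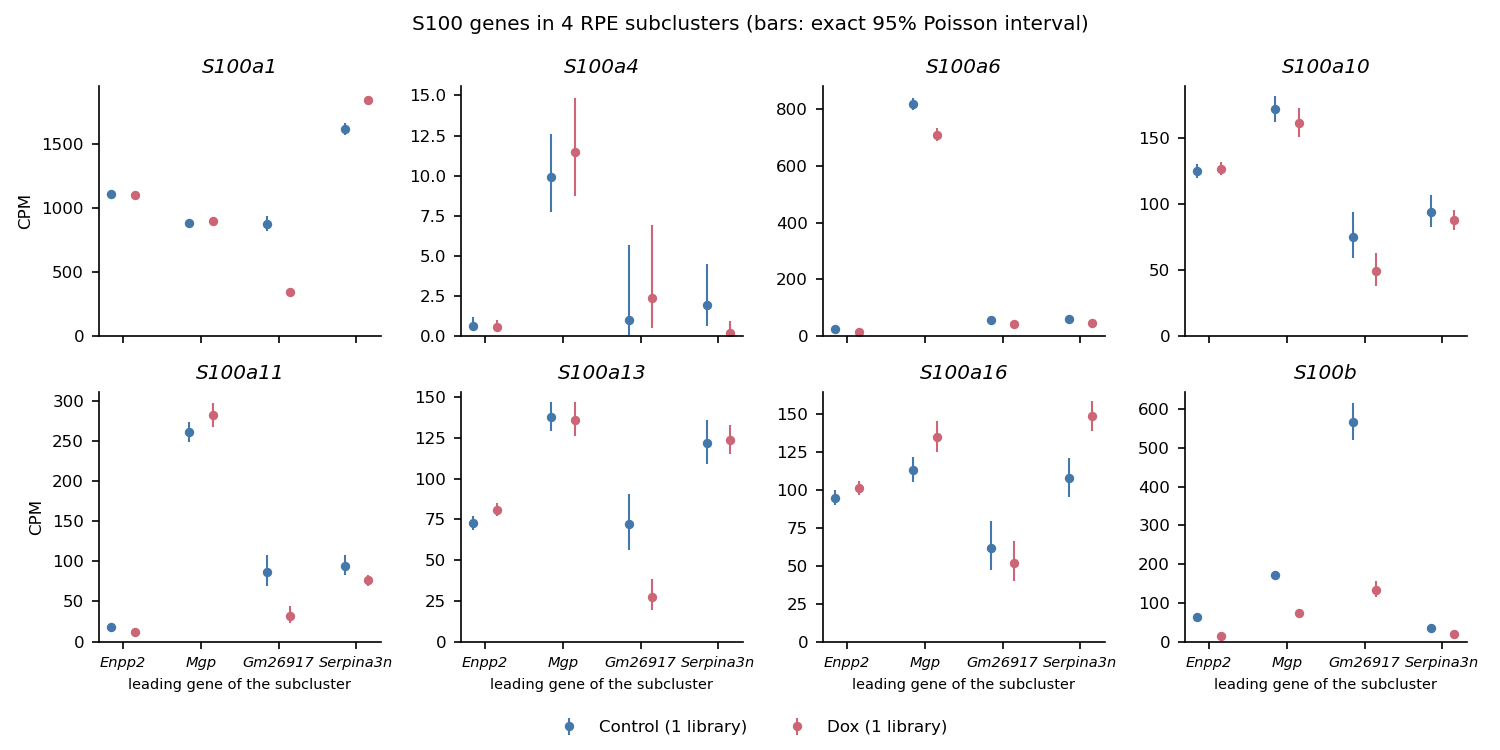
CPM of the 8 S100 genes in the Enpp2-led, Mgp-led, Gm26917-led and Serpina3n-led RPE cells, in control (blue) and Dox (red), with exact Poisson intervals. S100a1 is highest in Serpina3n-led cells (1613 and 1837 CPM), S100a6 and S100a11 in Mgp-led cells, and S100b in Gm26917-led cells.

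S100a1 was nearly level between the libraries in the Enpp2-led cells, with 1105 and 1102 CPM (log2 ratio 0.00, -0.03 to 0.02). The Mgp-led cells were the same in this respect, at 879 and 899 CPM. S100a1 was highest in the Serpina3n-led cells, with 1613 and 1837 CPM (0.19, 0.14 to 0.24), or 47.6 and 56.9 UMIs per cell. In the Gm26917-led cells it was 872 and 339 CPM (-1.36, -1.53 to -1.20). There RPE markers were 59318 and 43791 CPM, and melanocyte markers at 10797 and 3526 CPM, and their part in the result was not tested. Of the 7 members with enough UMIs in the Gm26917-led cells, 5 were at least 1.5-fold lower (S100a1, S100a10, S100a11, S100a13 and S100b), where 11.4% of genes were. No member was higher there, where 12.9% of genes were. S100a11 had 0.58 and 0.21 UMIs per Gm26917-led cell and S100a13 0.48 and 0.18. The lowest other named types had 1.33 and 0.53 for S100a11 and 0.61 and 0.30 for S100a13. S100a11 and S100a13 were thus not told apart from background in the Gm26917-led cells. In the Enpp2-led cells S100a6 and S100b were lower, 2 of 7, where 2.74% of genes were, and 0 were higher, where 0.88% were. S100a11 (18.5 and 12.3 CPM, -0.59) lay at the 1.5-fold limit there and was not counted. Per Enpp2-led cell there were 0.44 and 0.27 S100a6 UMIs and 0.33 and 0.24 S100a11 UMIs. These levels were under those of the lowest other named type, the melanocyte-like cells (1.82 and 0.74 for S100a6, 1.33 and 0.53 for S100a11), and so were not told apart from background. S100b alone was lower in the Mgp-led cells, 1 of 8, where 1.69% were lower and 2.8% higher. It was also the only member lower in the Serpina3n-led cells, 1 of 7, where 4.88% were lower and 6.18% higher. In Serpina3n-led cells with under 5 fibroblast marker UMIs, however, S100b was 20.97 and 18.6 CPM (log2 ratio -0.17, -0.70 to 0.38). The interval there held 0. In Dox 1 cell held 33 of the 104 S100b UMIs there, and the ratio without it was not computed. Over all Serpina3n-led cells without the top cell of each library, the S100b ratio was -0.94 (-1.44 to -0.43).

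The Serpina3n-led cells had more of several members than the Enpp2-led cells in both libraries. Their doublet scores had medians of 0.32 in control and 0.14 in Dox, and they held 7.65 and 1.79 fibroblast and 120 and 65.4 melanocyte marker UMIs per cell, whose part in these levels was not tested. In control the log2 ratio of Serpina3n-led over Enpp2-led CPM was 0.55 for S100a1, 0.74 for S100a13 and 2.36 for S100a11. In Dox the same ratios were 0.74, 0.61 and 2.63. S100a11 was 94.7 and 76.2 CPM there against 18.5 and 12.3 CPM in Enpp2-led cells. With cells over 4 fibroblast marker UMIs left out, it was still 72.4 and 74.4 CPM against 16.6 and 11.5 CPM. S100a16 was 108 and 149 CPM (0.46, 0.27 to 0.66), the highest ratio among the 7 members with enough UMIs in these cells, and 94.8 and 101 CPM in the Enpp2-led cells. S100a10 went the other way, with 93.9 and 87.4 CPM in Serpina3n-led against 125 and 127 CPM in Enpp2-led cells. Of the 279 S100a6 UMIs in the Dox Serpina3n-led cells, 1 cell held 197. The log2 ratio of S100a6 in these cells was -0.35 with it and -1.89 (-2.31 to -1.49) without the top cell of each library, where control had 1.52 and Dox 0.43 UMIs per cell.

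S100a6 and S100a11 were highest in RPE cells that also held much fibroblast RNA. In the Mgp-led cells S100a6 was 819 and 709.6 CPM, against 24.3 and 13.7 CPM in the Enpp2-led cells. S100a11 was 261 and 282 CPM in the Mgp-led cells. For every 100 UMIs of 14 fibroblast markers, the Mgp-led cells held 18.9 S100a6 UMIs in control and 17.5 in Dox, and the Myoc-led fibroblast-like cells 17.1 and 17.0. For S100a11 these were 6.02 and 6.96 against 5.97 and 6.25. The other RPE cells held more S100a11 per fibroblast marker UMI, with 14.1 and 15.1 in the Enpp2-led, 22.3 and 13.4 in the Gm26917-led and 36.6 and 132 in the Serpina3n-led cells. S100a6 was at 18.5 and 16.8 in the Enpp2-led, 13.99 and 17.05 in the Gm26917-led and 23.0 and 81.3 in the Serpina3n-led cells, where 1 Dox cell held 197 of the 279 UMIs. Macrophage or dendritic-like cells (49.9 and 62.8 S100a6 UMIs) and Schwann-rich cells (232 and 310) lay far above this proportion.

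RPE cells with 0 to 4 fibroblast marker UMIs, 1038 in control and 1297 in Dox, had 0.42 and 0.45 S100a6 UMIs per cell. Those with 5 to 19 had 2.69 and 3.40, those with 20 to 49 had 6.57 and 5.17, and those with 50 or more, 205 and 137 cells, had 21.6 and 19.99. S100a11 went from 0.47 and 0.55 in the lowest bin to 6.02 and 6.85 in the highest. S100a1 did not rise with the bins, at 18.9 and 23.6 in the lowest and 16.6 and 16 in the highest. S100a10, S100a13 and S100a16 were also higher in the highest bin than in the lowest, but by less than S100a6 and S100a11. In control they went from 1.92 to 3.70, from 1.29 to 2.84 and from 1.57 to 2.33. In the lowest bin 1 Dox cell held 197 of the 586 S100a6 UMIs, and it decided the comparison there. With it the log2 ratio of S100a6 was -0.12 (-0.30 to 0.07). Without the cell holding most S100a6 UMIs in each library it was -0.66 (-0.86 to -0.45). This was past 1.5-fold as in all RPE cells (-0.82) and in the Enpp2-led cells (-0.82, -1.06 to -0.59). S100a6 in the lowest bin and in the Enpp2-led cells lay under the lowest other named type (1.82 and 0.74). It was thus not told apart from background there. In the higher bins its ratios were 0.17 (-0.05 to 0.40), -0.10 (-0.26 to 0.05) and -0.12 (-0.19 to -0.05). In the Mgp-led cells the S100a6 ratio was -0.21 (-0.27 to -0.15). For S100a11 the interval in the lowest bin, its own top cells left out, held 0 (-0.06, -0.23 to 0.12), and its ratio was -0.59 in the Enpp2-led cells. The Mgp-led cells were 26.7% of control and 17.8% of Dox RPE cells, and the part of this share in the S100a6 result was not tested.

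**Figure D4:**
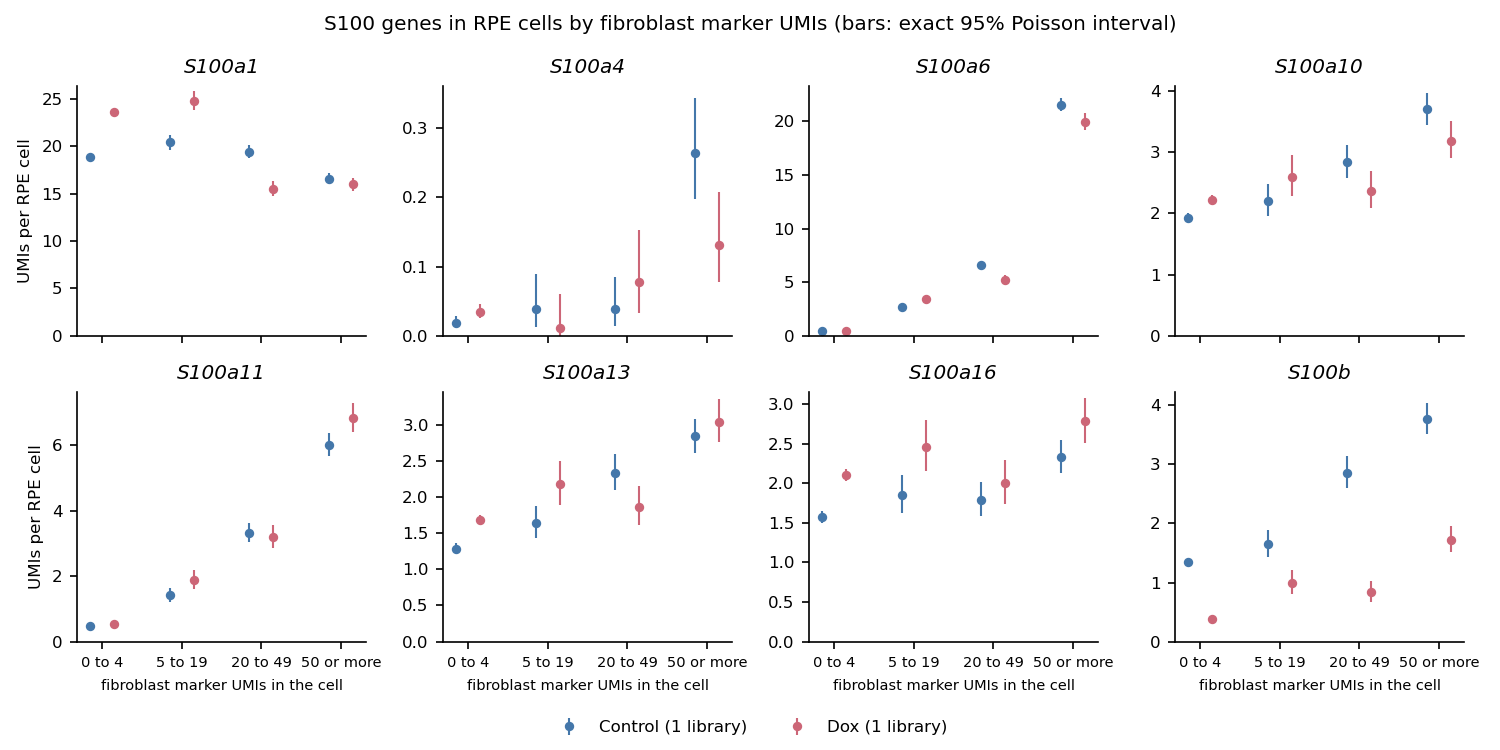
UMIs per RPE cell of the 8 S100 genes in cells with 0 to 4, 5 to 19, 20 to 49 and 50 or more fibroblast marker UMIs, in control (blue) and Dox (red), with exact Poisson intervals. S100a6 goes from 0.42 and 0.45 in the lowest bin to 21.6 and 19.99 in the highest, while S100a1 does not rise.

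S100b, a glial and melanocyte marker, was lower in Dox in every type. The gene lies at chr10:76253853-76261159 on the plus strand (GENCODE vM21) and overlaps Dip2a on the minus strand. Melanocyte-like cells had 6.82 UMIs per cell in control (6.70 to 6.93) and 2.95 in Dox (2.88 to 3.03), and Schwann-rich cells 3.96 and 2.45. All other named types lay between 1.20 and 1.61 in control. RPE cells had 1.85 in control and 0.56 in Dox. The Enpp2-led RPE cells had 1.13 and 0.28, under the lowest other type in both libraries (1.20 in macrophage or dendritic-like and 0.35 in endothelial-like cells). In the Enpp2-led cells S100b was therefore not told apart from background, which does not show that it was free RNA. Serpina3n-led cells with under 5 fibroblast marker UMIs held 0.61 per cell in control, less than the Enpp2-led cells, and 0.57 in Dox, more than them. There 1 Dox cell held 33 of the 104 UMIs. The Mgp-led cells had 2.89 and 1.29 UMIs per cell and the shallow Gm26917-led cells 3.74 and 0.88, above the lowest type.

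S100b was lower in Dox in all other cell types too. Its log2 ratio was -1.31 in macrophage or dendritic-like, -1.46 in smooth muscle-like, -1.56 in NK or T-like and -1.93 in endothelial-like cells. In these types S100b lay at or near the lowest level of its library and was not read as expression. The ratio was -1.87 in RPE cells and -2.17 in Enpp2-led cells. In CPM the S100b ratio was smallest in the melanocyte-like cells, with 2497 and 2149 CPM (-0.22, -0.26 to -0.17), whose median depth was also lower in Dox. It was -0.50 in Cxcl10-led, -0.57 in Myoc-led and -1.11 in Dpt-led fibroblast-like cells and -0.83 in Schwann-rich cells. Per cell the order differed, with -1.21 in melanocyte-like, -0.43 in Myoc-led and -0.30 in Cxcl10-led cells. Pmel, a structural protein of pigment granules, moved with S100b. Pmel was at 3.10 UMIs per macrophage or dendritic-like cell in control and 0.76 in Dox, at 3.17 and 0.80 per NK or T-like cell and at 5.13 and 1.22 per RPE cell. The 10 melanocyte markers summed to 10.6 to 15.9 UMIs per cell in control and 3.44 to 5.25 in Dox over the named types other than melanocyte-like and RPE cells. Their part in the S100b result was not tested.

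In Dox, S100b was higher in the Myoc-led and Cxcl10-led fibroblast-like cells than in most other types, apart from melanocyte-like and Schwann-rich cells. The Myoc-led cells had 1.19 UMIs per cell (1.17 to 1.21) and the Cxcl10-led cells 1.05, against 0.35 to 0.56 in RPE, NK or T-like, smooth muscle-like, macrophage or dendritic-like and endothelial-like cells. For every 100 Pmel UMIs, Myoc-led cells held 70.5 S100b UMIs in control and 206 in Dox, and melanocyte-like cells 23.8 and 32.0. RPE cells held 36.0 and 46.2 and smooth muscle-like cells 46.5 and 62.3. The proportion was thus not the same in all types of either library. S100b in RPE cells also went with the fibroblast bins, from 1.35 to 3.77 UMIs per cell in control and from 0.39 to 1.72 in Dox. In the Gm26917-led cells it was 566 and 134 CPM, beside 16.6 and 2.56 Pmel UMIs per cell.

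**Figure D5:**
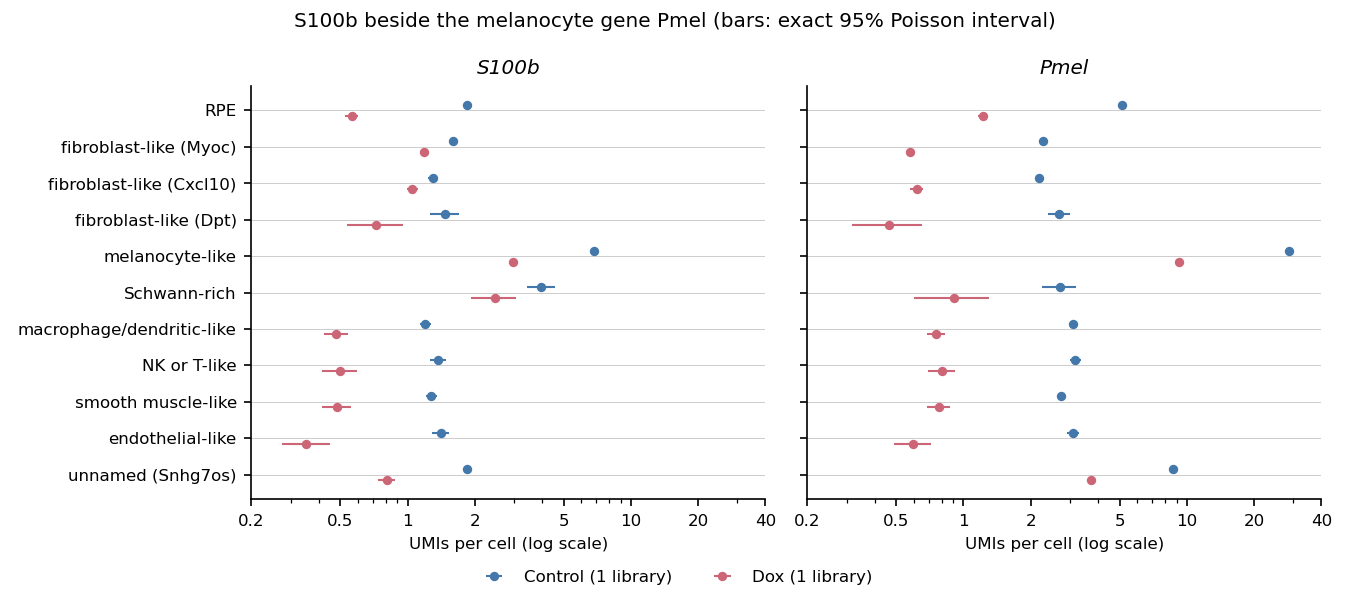
UMIs per cell (log axis) of S100b and of the pigment gene Pmel in 11 groups of cells, in control (blue) and Dox (red), with exact Poisson intervals. Both genes are lower in Dox in all 11 groups; in Dox the Myoc-led and Cxcl10-led fibroblast-like cells (1.19 and 1.05) stand above the other non-melanocyte, non-Schwann types for S100b and not for Pmel.

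In the most numerous cell types outside the RPE no member passed 1.5-fold in CPM. In the Myoc-led, Cxcl10-led and melanocyte-like cells 0 of 8 did, where 3.26%, 2.39% and 8.84% of genes were lower and 1.31%, 1.86% and 7.54% higher. Per melanocyte-like cell, however, all 8 members were lower in Dox, with log2 ratios from -0.92 (S100a16) to -1.32 (S100a11). These cells were shallower in Dox, and RPE markers were 10287 and 30804 CPM in them, beside melanocyte markers at 39668 and 26144 CPM. The part of either in the ratios was not tested. In smooth muscle-like cells 3 of 8 were lower (S100a10, S100a16 and S100b), where 3.95% of genes were, and 0 were higher, where 3.19% were. In NK or T-like cells 3 of 8 were lower (S100a1, S100a4 and S100b), where 5.85% were, and none was higher, where 3.52% were. In the Snhg7os-led cells S100a1 and S100b were lower, 2 of 7, where 4.99% of genes were, and 0 were higher, where 7.6% were. The same genes, 2 of 8, were lower in Schwann-rich cells, where 8.18% were, and 0 were higher, where 6.47% were. In the NK or T-like, Snhg7os-led and Schwann-rich cells the S100a1 levels were among those not read as expression above. In macrophage or dendritic-like cells S100b alone was lower, where 4.9% of genes were and 2.91% were higher. The same held in Dpt-led fibroblast-like cells, where 6.69% were lower and 7.64% higher. Of the named types, macrophage or dendritic-like cells had the least S100b in control (1.20 UMIs per cell) and endothelial-like cells in Dox (0.35). Smooth muscle-like cells (1.28 and 0.48) and NK or T-like cells (1.37 and 0.50) lay near these levels. S100b in these types, apart from the Dpt-led cells (1.47 and 0.72), was not read as expression. In the few cells of the RPE-like cluster under the Rpe65 limit, S100a6 and S100b were lower, 2 of 7, where 9.14% were, and S100a16, with an interval that held 0, higher, where 6.03% were. In endothelial-like cells S100b was lower (5.84% of genes) and S100a4, on 30 and 23 UMIs and with an interval that held 0, higher (4.11%). S100a10 stayed just under 1.5-fold there, with 334 and 488 CPM (0.55, 0.36 to 0.74). In the Dpt-led fibroblast-like cells S100a10 was 1174 and 1715 CPM (0.55, 0.41 to 0.68), S100a11 1558 and 1997 CPM (0.36) and S100a16 262 and 363 CPM (0.47).

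Partners of the S100 proteins were described from lists of annexins, intracellular partners, secreted partners and receptors, and other calcium-binding genes. In RPE cells none of the 32 listed genes with enough UMIs was 1.5-fold higher in Dox, where 1.64% of all genes were, and 4.89% of all genes were lower. Of the other calcium-binding genes 0 of 7 were lower. Of the annexins 1 of 8 was lower, Anxa1 (26.6 and 17.7 CPM, -0.59), and their median was -0.21. Anxa1 was 82.2 and 96.1 CPM in the Mgp-led cells and 5.48 and 2.38 CPM in the Enpp2-led cells. Anxa2, the partner of S100a10, was 124 and 101 CPM in RPE cells (-0.29), and 45.5 and 44.3 CPM in the Enpp2-led cells. Of the intracellular partners 2 of 11 were lower. These were Ndrg1, a stress-responsive gene, at 21.4 and 7.92 CPM (-1.43), and Mapt, which encodes tau, at 2.01 and 0.58 CPM (-1.80). Both were lower in the Mgp-led and the Enpp2-led cells too, for example Ndrg1 at 42.0 and 32.3 CPM and at 10.5 and 2.69 CPM. Cacybp, the calcyclin-binding protein, was 105 and 103 CPM. Ahnak, a large scaffold bound by S100a10 and annexin A2, was 66.4 and 47.3 CPM (-0.49). Atp2a2, the calcium pump that S100a1 binds, was 43.2 and 42.4 CPM, while its highest level was in smooth muscle-like cells (678 CPM in Dox).

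Of the secreted partners and receptors 2 of 6 were lower, Tlr4 (1.67 and 0.99 CPM, -0.75) and the plasminogen activator gene Plat (14.4 and 9.49 CPM, -0.60). Tlr4 had only 44 and 31 UMIs in RPE cells. Plat was 43.6 and 43.2 CPM in the Mgp-led and 3.65 and 3.06 CPM in the Enpp2-led cells. Tlr4 was 3.06 and 2.77 CPM in the Mgp-led and 0.88 and 0.37 CPM in the Enpp2-led cells. The part of the smaller Mgp-led share in Dox in the ratios of listed genes was not tested. Ager had only 8 and 16 UMIs in RPE cells, too few for a ratio. Fgf1, which S100a13 helps to release, was 35.4 and 39.7 CPM, and Bsg, the membrane protein basigin, 6398 and 6284 CPM. None of the 9 other S100 genes reached 50 UMIs in RPE cells. S100a8 and S100a9, known from neutrophils and monocytes, had 9 and 12 UMIs in control RPE cells and 2 and 3 in Dox. Their highest levels were in Dox macrophage or dendritic-like cells, at 306 and 408 CPM.

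Among 3943 genes at 100 CPM or more in some group, those most like each member over the 24 groups were ranked by Pearson r of log2(CPM + 1). For S100a1 they were Tspan10, Kcnj13 and Chchd10 (all 0.93). S100a6 was followed by Chst12, S100a11 and Anxa1 (0.93, 0.92 and 0.91), and S100a11 by Chst12, Emp3 and Anxa2 (0.94, 0.93 and 0.92). S100b had Paqr6, Gjb2 and Gstp1 (0.95, 0.92 and 0.91). S100a4 had Arpc4, Eif3m and Cdc42se1 (0.91 to 0.90), S100a10 had Arf5, Cd47 and Jpt1 (0.89 to 0.85), S100a13 had Ssr2, Tmed9 and Myl12a (0.92 to 0.85) and S100a16 had Atxn10, Yif1a and Npdc1 (0.85 to 0.83).

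The UMIs of some members sat in few RPE cells. The 10% of control RPE cells with most UMIs of a gene held 73.3% of the S100a6 UMIs and 56.1% of the S100a11 UMIs, but 28.2% of the S100a1 UMIs. They held 56.3% of the S100b UMIs. For S100a4 this share could not be other than 100%, since its 84 UMIs were fewer than the cells in that 10%. S100a1 had a median of 16 UMIs per cell in control (10th to 90th percentile 2 to 38) and 18 in Dox (1 to 50). A UMI of S100a1 was seen in 96.3% of control and 93.5% of Dox RPE cells. For S100a6 these were 44.3% and 33.6%, and for S100b 57.4% and 26.0%, with medians of 0 UMIs per cell for S100a6 in both libraries.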

How the data were processed

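Single cells of the RPE, choroid and sclera were sequenced with a 10x Genomics 5′ kit. The deposited values are raw UMI counts for each gene and cell, which the authors obtained with Cell Ranger on mm10 (the headers name version 4.0.0). Kept cells had over 500 UMIs, a mitochondrial share under 0.2, 200 to 6000 genes and a complexity (log10 genes over log10 UMIs) above 0.8. Both libraries were integrated on 3000 SCTransform features less the S100 genes (2992 for all cells, 2994 for RPE cells), with 40 components at resolution 0.1 (Seurat 5.3.0, sctransform 0.4.2, R 4.3.3).

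Clusters were named by at least 1 marker among their 10 leading genes, a rule set after the clusters were seen. UMIs were summed per group, and calls at 1.5-fold were made with 0.5 UMI added to each sum (Python 3.11.15, scipy 1.17.1). Intervals are exact Poisson for levels, Clopper-Pearson for shares and conditional binomial for ratios, tested on simulated data. Doublets were scored with Scrublet (scanpy 1.11.5) and not removed. Its threshold called 0 Dox cells and so did not work there.

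Members and lists were chosen with earlier results of these data known. Named genes are all members, listed partners past 1.5-fold or above 100 CPM in a type, of which only some are given, and the 3 most alike genes per member. Figures were drawn with matplotlib 3.10.9.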

Additional observations from a re-analysis of the deposited data

Results flagged for a closer look

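Of the 8 members, 7 were higher in Dox in some group of cells and lower in another, each on at least 50 UMIs and with an interval of counting error that left out 0, and none of these differences between groups was tested. The log2 ratio of Dox to control for S100a1 was 0.19 in Serpina3n-led and -1.36 in Gm26917-led RPE cells. S100a4 was at 0.27 in macrophage or dendritic-like and -0.62 in NK or T-like cells. S100a6 was at 0.24 in Schwann-rich cells, from 49 and 31 cells, and -0.82 in Enpp2-led RPE cells. S100a10 was at 0.55 in endothelial-like and -0.66 in smooth muscle-like cells. S100a11 was at 0.36 in Dpt-led fibroblast-like and -1.44 in Gm26917-led RPE cells. S100a13 was at 0.15 in Enpp2-led and -1.39 in Gm26917-led RPE cells. In the Gm26917-led cells S100a11 and S100a13 lay under the lowest other named type, as did S100a6 in the Enpp2-led cells. These levels were not told apart from background. S100a16 was at 0.47 in Dpt-led fibroblast-like and -0.60 in smooth muscle-like cells. Groups with fewer UMIs or with an interval that held 0 were left out, and the pairs were chosen after their values were seen.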

How the results depend on the processing

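Each member's ratio in RPE cells was recomputed under 18 settings. Of 144 values, 85 stayed within the interval of counting error, and the others moved beyond it. In all 7 changed sign, 3 of them of members whose own interval left out 0. S100b was lower throughout (-2.08 to -1.51) and so was S100a6 (-1.02 to -0.12). S100a10 turned to 0.031 in UMIs per cell, and to 0.16 after subtraction of the lowest other type, where S100a11 became 1.63. S100a4 (0.70 and 0.84) and S100a13 (-0.11 and -0.081) made up the rest. Under that subtraction 2 members were past 1.5-fold higher and 1 lower, with no share of all genes computed. With under 5 fibroblast marker UMIs, a setting added after the data were seen, 1 was higher (S100a4, where 1 cell held 29 UMIs) and 1 lower, against 1.89% and 2.96% of all genes. Without the top cell of each library, added likewise, these became 0 higher and 2 lower. At 5 or more Rpe65 UMIs 1 was lower, against 3.44% of all genes. RPE cells numbered 1443 and 1534 at a mitochondrial share under 0.1, 1376 and 1457 by cluster, 1193 and 1441 without the highest doublet scores, and 1717 in Dox with no limit on genes or complexity. The causes were not tested. No paired analysis was possible because each condition had 1 library, and no library could be left out. The lowest other named type was taken as a floor for each gene and library, up to 1.82 UMIs per cell for S100a6 in control. Levels under it were not told apart from free RNA. The floor is not a measure of free RNA itself, since control Enpp2-led RPE cells held 0.44 S100a6 UMIs per cell.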

Other observations

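Cells just above and just below the limit of 10 Rpe65 UMIs had like depths, with medians of 4540 and 4253 UMIs above and 4526 and 4441 below it. Cells with 10 to 14 Rpe65 UMIs, 133 in control and 173 in Dox, had 5.56 and 3.80 S100a1 UMIs per cell, and those with 5 to 9, 529 and 813 cells, had 3.92 and 2.22. S100a6 was higher below the limit, at 8.50 and 7.51 UMIs per cell against 5.57 and 5.32 just above it. Cells of the RPE-like cluster under the limit, 73 and 76, had 5.78 and 6.38 S100a1 UMIs per cell, or 943 and 946 CPM, close to the 1088 and 1178 CPM of RPE cells. Their RPE marker UMIs were 279 and 354 per cell.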
